A study of Rattus norvegicus with 16 samples.

Results

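The genes described here are the 100 that stood lowest after nerve injury in both genotypes of a rat spinal cord series, out of 13946 genes kept by a rule on low values and 30560 gene IDs in the table. The rule took CPM (the count as a share of the library's total, scaled to a common total), kept IDs with a mean of 1 CPM or more over 16 libraries, and used log2(CPM + 0.5). In each genotype, d was the median of the SNI libraries minus the median of the sham libraries. Genes were ranked by the larger, that is the less negative, of their 2 values of d, and the 100 lowest were taken, so a member had to be lower after injury in wild-type and in knockout rats alike. A ranking of this kind returns 100 genes whatever the data hold. The values of d are therefore given as a description, with no test, and support nothing about injury.

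The libraries were made from poly(A) RNA of the lumbar spinal dorsal horn, taken 28 days after surgery. The 4 groups were wild-type rats (WT) after a sham operation, WT rats after spared nerve injury (SNI), rats with a knockout (KO) of the receptor LPA4 labelled as sham in the table, and LPA4-KO rats after SNI, with 4 libraries each. The titles of the KO sham samples carry "WT" where the operation should stand, and their group was taken from the table's headers and the series design. The labels give no strain, sex, age or allele, and do not say whether a library is 1 rat, so the spread between libraries may be partly technical.

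The dorsal horn is the part of the spinal cord where sensory fibres from the limbs and trunk end on excitatory and inhibitory interneurons, among astrocytes, microglia and oligodendrocytes. In spared nerve injury, branches of the sciatic nerve are cut while another is left intact, which gives lasting hypersensitivity of the hind paw and a well-known microglial reaction in the dorsal horn. LPA4 is a G protein-coupled receptor for lysophosphatidic acid, a lipid messenger. In bulk tissue of this kind, fewer cells of a type and less RNA per cell cannot be told apart. No ID of the table could be matched to a gene name here, so cell type markers and pathways were not read, and members are called by their rank in the list, with the 2 leading IDs given in full.

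Members were mostly lowered by little. The median d over the 100 was -0.30 in WT and -0.30 in KO, beside 0.02 and 0.00 over all genes kept. Only 6 members had a d of -1 or less (about 2-fold lower or more) in both genotypes, 13 reached -0.5 and 47 reached -0.25. The 10 leading members had a median d of -1.30 in WT and -1.63 in KO, ranks 11 to 20 had -0.39 and -0.46, ranks 21 to 50 had -0.30 and -0.33, and ranks 51 to 100 had -0.24 and -0.23. At the threshold, rank 99 had d of -0.35 in WT and -0.20 in KO, rank 100 had -0.29 and -0.20, and the first genes outside, ranks 101 and 102, had -0.20 and -0.25, and -0.23 and -0.20. The last gene inside and the first outside were thus apart by less than the rounding of these values. At the other end of the same scale, the 100 genes highest in both genotypes all had d of 0.56 or more in each.

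**Figure D1:**
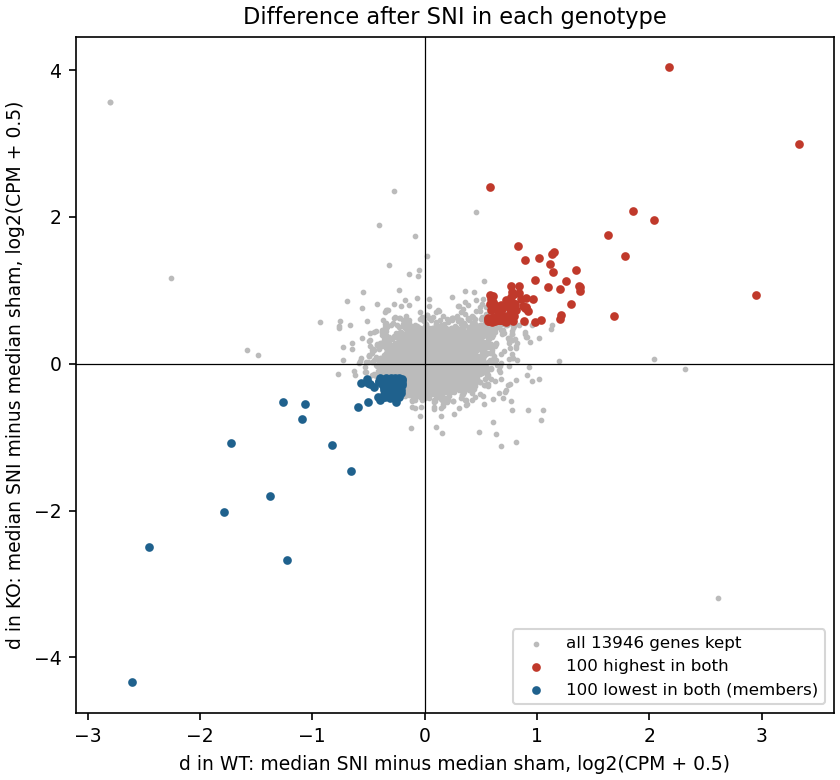
Each point is a gene, with d (median SNI minus median sham on the log2(CPM + 0.5) scale) in WT on the horizontal axis and in KO on the vertical axis, for the 13946 genes kept, the 100 lowest and the 100 highest in both. The 6 members at -1 or less in both genotypes lie at the lower left, and most of the remaining members lie at the edge of the main cloud, while the 100 highest start at 0.56. Some of the remaining members, such as rank 9 (-0.65 in WT, -1.45 in KO), also lie away from it.

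Of all genes kept, 3083 (22.1%) had a d below 0 in both genotypes, 3937 (28.2%) had a d above 0 in both, and 49.7% had neither.

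Of the first 10 ranks, 6 were genes that stood at 2 separate levels in different libraries, and ranks 6, 7, 9 and 10 were not. The member of rank 1, ENSRNOG00000006365, was in WT sham replicates 1 to 4 at 20.6, 0.507, 9.38 and 0 CPM, and in WT SNI at 8.30, 0, 0.0376 and 0 CPM. In KO sham it was at 9.19, 9.22, 10.8 and 10.9 CPM, and in KO SNI at 8.15, 0.0409, 0 and 0 CPM. In KO, all sham libraries lay above all SNI libraries, while in WT the groups overlapped, with 2 low libraries in sham and 1 high library in SNI. In counts, the 8 high libraries held 151 to 517 reads of this gene and the 8 low ones 0 to 8, where 3 counts correspond to 0.107 to 0.190 CPM depending on the library. Its d was -2.61 in WT and -4.34 in KO. The d in WT was -0.96 without WT sham replicate 1 or 3 and -4.25 without WT sham replicate 2 or 4, while in KO it ran from -4.45 to -4.22 without any 1 library. EdgeR's estimate of the SNI effect averaged over genotypes was -2.12 on the log2 scale, with a standard error of 1.18 and a 95% confidence interval of -4.66 to 0.42 that included 0. Omitting KO SNI replicate 1 gave an estimate of -5.51, omitting WT SNI replicate 1 gave -5.45, and omitting WT sham replicate 1 gave -1.54, while limma voom gave -5.14.

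The member of rank 2, ENSRNOG00000070065, stood in WT sham at 28.9, 25.1, 30.5 and 0.951 CPM and in WT SNI at 23.4, 25.5, 0 and 0.552 CPM. It was at 29.3, 0.120, 26.9 and 26.8 CPM in KO sham and at 38.8, 0.188, 0.374 and 26.2 CPM in KO SNI. In each genotype 1 sham library and 2 SNI libraries were low, so groups that differed by 1 low library received a d of -2.45 in WT and -2.50 in KO. These values turned on single libraries: d in WT was -4.71 without WT SNI replicate 1 or 2 and -0.20 without WT SNI replicate 3 or 4. In KO it was -4.97 without KO SNI replicate 1 or 4 and -0.03 without KO SNI replicate 2 or 3. The SNI effect averaged over genotypes was -0.59 by edgeR (standard error 1.06, 95% confidence interval -2.87 to 1.69), -2.42 by limma voom, and -1.02 without KO SNI replicate 1 to -0.38 without WT SNI replicate 3. Some of its counts were fractional, which means that reads shared with another gene had been divided.

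The same pattern recurred down the first ranks. A member was called stepped where the sorted log2 values of its 16 libraries held a gap of 1 or more with at least 2 libraries on each side. By this definition, chosen after the values were seen, 7 of the 100 members (7%) were stepped, beside 0.896% of all genes kept and 3 of the 100 highest genes. Of the 7, 6 were among the first 10 ranks and 1, of rank 67, was among the other 90. Without WT sham replicate 2 and KO SNI replicate 1, the libraries described below as standing apart, the count was again 7, beside 0.265% of all genes kept. Groups whose medians fall on opposite sides of such a gap receive a large d by construction. The same can hold where 2 of 4 libraries are low and the median falls inside the gap, as in both SNI groups of rank 2.

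Rank 4 was the best covered stepped member. WT sham libraries held it at 170, 33.4, 171 and 27.8 CPM and WT SNI libraries at 17, 18.7, 43.8 and 44.1 CPM. KO sham libraries held it at 174, 168, 21 and 43.7 CPM and KO SNI libraries at 128, 24.3, 24.4 and 21.4 CPM. In each genotype 2 of the 4 sham libraries lay among the low values, and KO SNI replicate 1 lay among the high ones. Its high level was 128 to 174 CPM and its low level 17 to 44.1 CPM, with no library between.

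Rank 3 showed a step at a low level. In WT its values were 2.75, 2.22, 2.53 and 0.215 CPM after sham and 2.53, 0.450, 0.226 and 0.210 CPM after SNI. In KO they were 0.333, 2.28, 3.01 and 3.31 CPM after sham and 0.214, 0.327, 0.377 and 0.159 CPM after SNI. All KO SNI libraries were low, and 1 library in each other group went against its group.

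Rank 5 was at 3.03 to 6.73 CPM in 6 libraries and at 0.268 CPM or below in 10, and its only high SNI library was KO SNI replicate 1. Rank 8 was at 2.47 to 12.5 CPM in 9 libraries and at 0.158 CPM or below in 7, with 5 of the 7 in WT and 1 in each KO group. Rank 67 was high in only 2 libraries, KO sham replicate 1 and KO SNI replicate 4, at 5.70 and 6.66 CPM.

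The stepped members did not part the libraries alike. The 7 genes gave 7 different sets of low libraries, and no 2 shared a set. WT sham replicate 4 was on the low side of 7 of them, as were WT SNI replicates 3 and 4, whereas WT sham replicate 1 and KO sham replicate 1 were on the low side of 1. Within WT sham, replicate 4 was the only low library in ranks 2 and 3 and 1 of 2 low libraries in ranks 1, 4, 5 and 8, and in rank 67 all 4 were low. What sets the 2 levels of these genes was not tested.

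**Figure D2:**
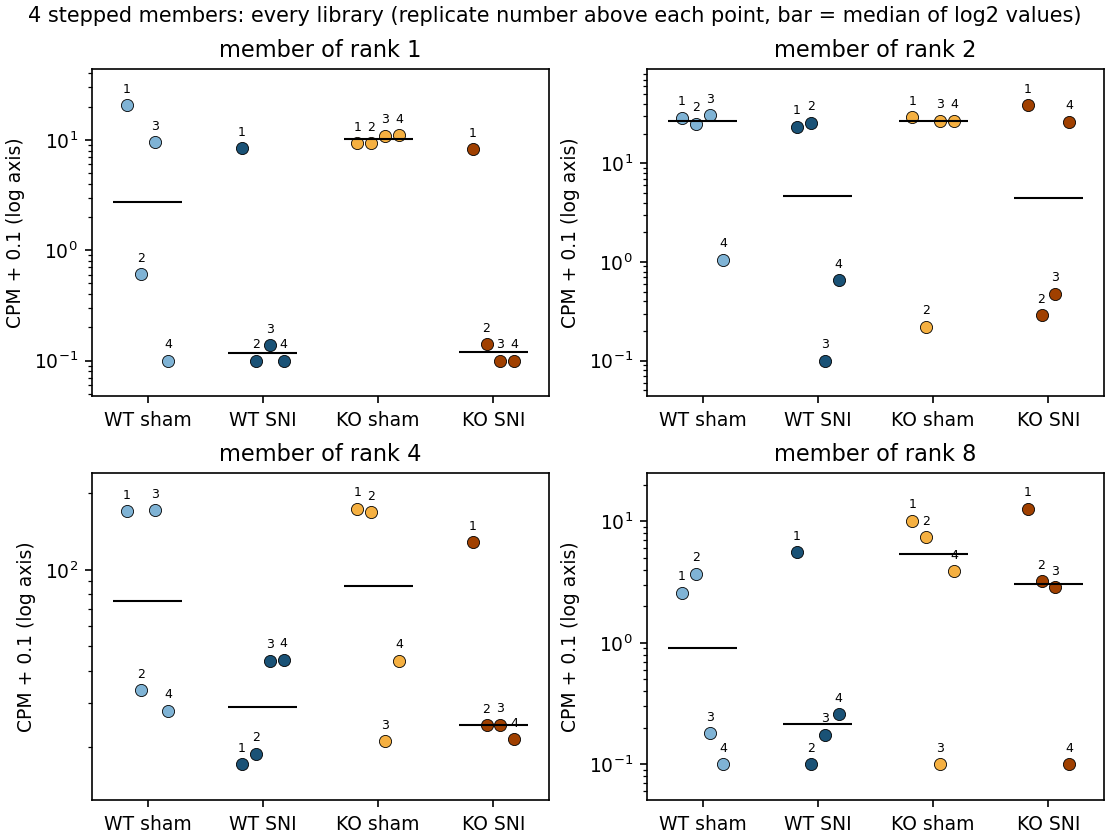
Level of 4 stepped members in every library, as CPM + 0.1 on a log axis, by group. Points carry the replicate number and bars mark the group median of the log2(CPM + 0.5) values. Each gene falls into a high and a low set of libraries that cuts across the groups: rank 2, for example, is low in 1 library of each sham group and 2 of each SNI group.

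Some other members, among them ranks 17, 20 and 50, had a small difference and were not stepped. EdgeR called 0 of the 100 members lower after SNI, averaged over genotypes, at an adjusted p under 0.05, against a background of 0% of 15237 genes called lower and 0.912% called in either direction. All 100 passed edgeR's filter on low counts. Limma voom also called 0 members, beside 0% of genes called lower and 0.893% in either direction, while DESeq2 called 4 lower, those of ranks 3, 17, 20 and 50. DESeq2 called 5 (0.033%) of the 15171 genes to which it gave an adjusted p lower, and 1.47% in either direction. The rule used this contrast, so nothing is read from these counts. At an unadjusted p under 0.05 edgeR gave 32 members, all lower, beside 5.27% of all genes tested in either direction. The members, however, were chosen by the same difference. The smallest adjusted p of a member was 0.0964 by edgeR.

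Rank 50 was the member with that p. In WT it stood at 7.17, 8.42, 6.86 and 6.12 CPM after sham and 6.21, 4.46, 5.91 and 5.78 CPM after SNI. In KO it stood at 7.53, 8.23, 6.91 and 8.33 CPM after sham and 5.41, 6.87, 5.06 and 6.02 CPM after SNI. The KO groups did not overlap, and in WT the lowest sham library lay below the highest SNI library. Its means were 7.14 ± 0.961 and 5.59 ± 0.776 CPM in WT and 7.75 ± 0.666 and 5.84 ± 0.790 CPM in KO (sham, then SNI; SD, n = 4 each). The averaged effect was -0.40 on the log2 scale by edgeR (standard error 0.10, adjusted p = 0.0964), and DESeq2's adjusted p was 0.0136.

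Rank 20 was the most abundant of the 4. WT libraries held it at 33.3, 36.2, 40.6 and 22.3 CPM after sham and 27.6, 26.5, 28.7 and 20.2 CPM after SNI. KO libraries held it at 34.6, 38.4, 33.5 and 40.7 CPM after sham and 23.5, 29.5, 23.6 and 31.1 CPM after SNI. The KO groups again did not overlap, and in WT a single sham library, replicate 4, lay among the SNI values. The averaged effect was -0.43 (standard error 0.12, edgeR adjusted p = 0.139, DESeq2 adjusted p = 0.0264). Without WT sham replicate 4, edgeR called this member, at an adjusted p of 0.0135. It was then the only gene called lower of 15366, and 0.605% were called in either direction. The omitted library was that lying among the SNI values and the rule used this contrast, so nothing is read from the call.

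Rank 17 in WT was at 2.67, 2.60, 2.93 and 1.93 CPM after sham and 2.36, 1.84, 1.28 and 2.0 CPM after SNI. In KO it was at 2.33, 2.39, 3.49 and 2.64 CPM after sham and 1.64, 1.76, 1.84 and 1.66 CPM after SNI. The averaged effect was -0.57 (standard error 0.15, edgeR adjusted p = 0.108, DESeq2 adjusted p = 0.0239). As in ranks 20 and 50, KO SNI lay below KO sham in every library and WT sham replicate 4 was the lowest of its group.

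**Figure D3:**
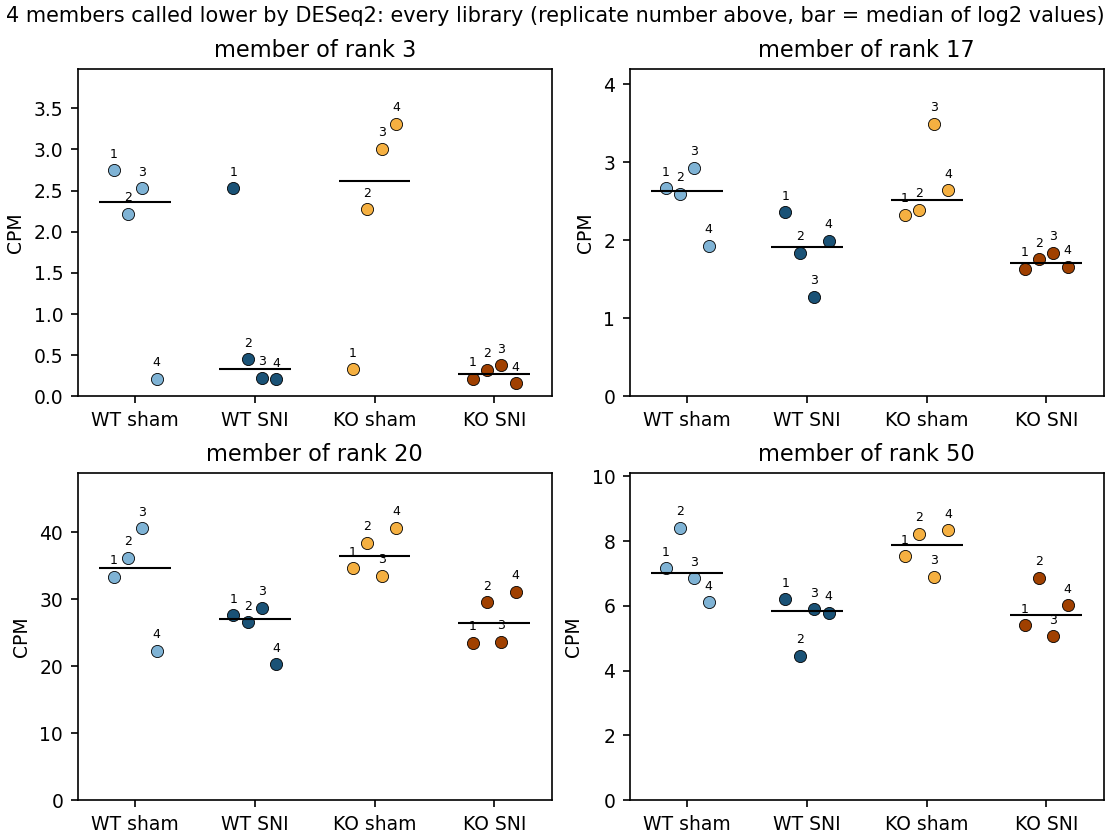
Level in CPM of the 4 members that DESeq2 called lower after SNI averaged over genotypes, in every library by group, with replicate numbers above the points and bars at the group median of the log2(CPM + 0.5) values. In ranks 17, 20 and 50 every KO SNI library lies below every KO sham library, and WT sham replicate 4 is the lowest WT sham library; rank 3 is a stepped gene.

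In the single genotypes edgeR called 0 members, in WT beside 0% of genes called lower (0.0853% in either direction) and in KO beside 0% (0.105% in either direction). Unadjusted p values under 0.05 were found for 16 members in WT and 8 in KO, all lower. Over all genes tested, 4.71% in WT and 4.75% in KO had such a p in either direction. Limma voom called 0 members in either genotype, beside 0% of genes called lower in each, with 0% in WT and 0.0459% in KO called in either direction. DESeq2 called 0 in WT, beside 0.0132% of genes called lower (0.428% in either direction), and 1, rank 3, in KO (adjusted p = 0.0373), beside 0.0264% (0.646% in either direction). All 4 SNI libraries lay below all 4 sham libraries in WT for 2 members, ranks 15 and 91, beside a background of 0.545% of genes kept. In KO this held for 7 members, ranks 1, 13, 17, 20, 50, 56 and 100, beside 0.71%. No member showed it in both genotypes, and only 2 of the 13946 genes kept did. Since the members were chosen by the difference in medians, nothing is read from these shares. Without the libraries that stood apart, smaller groups had to separate, and the counts were 9 in WT, beside 2.79% of genes, and 15 in KO, beside 2.82%.

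As a group, the members were weakly expressed and variable. Their mean level had a median of 3.41 CPM, against 23.2 CPM over all genes kept, and 56% of them were under 5 CPM, against 17.3%. The lowest was at 1.03 CPM and the highest at 489 CPM. The spread within groups, as the pooled SD of log2(CPM + 0.5), had a median of 0.36 in members and 0.18 over all genes. Among the 56 members under 5 CPM it was 0.34, beside 0.29 for all genes of that level, and among the 44 members at 5 CPM or more it was 0.38, beside 0.16. A gene of wide spread more easily reaches a large difference in medians, so this property is not independent of the ranking. In 10 members the mean was 1 CPM or more in sham but under 1 in SNI libraries, as in 33 of the 13946 genes kept. These members passed the filter through the sham libraries alone. Fractional counts, a sign of reads divided among similar genes, occurred in 12% of members and in 7.79% of all genes kept.

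The most abundant member illustrates a d that rests on medians. Rank 76 in WT was at 654, 190, 629 and 498 CPM after sham and 409, 397, 501 and 652 CPM after SNI. In KO it was at 397, 529, 624 and 518 CPM after sham and 242, 685, 498 and 406 CPM after SNI. The groups overlapped throughout. Its means were 493 ± 213 and 490 ± 118 CPM in WT and 517 ± 93.3 and 458 ± 185 CPM in KO (sham, then SNI; SD, n = 4 each), although its d was -0.31 in WT and -0.22 in KO. Over the list, the difference of means on the log2 scale was below 0 in both genotypes for 80 of the 100 members, and for 15.7% of all genes kept.

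Single libraries weighed on the list. Library totals ran from 15790243 to 28090152 counts, and WT sham replicate 2 had the lowest total. In WT sham replicate 2, 30 members were over 2-fold from the median of the other 15 libraries, 12 higher and 18 lower, where the other WT sham libraries had 4 to 8. Among all genes kept, 8.57% were over 2-fold away in WT sham replicate 2, 2.60% in KO SNI replicate 1, and 0.201% to 1.36% in the others. KO SNI replicate 1 had 11 such members, 9 of them higher, where the other KO SNI libraries had 4 to 6. Leaving out WT sham replicate 2 and ranking again returned 65 of the 100 members, and leaving out both libraries returned 53.

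**Figure D4:**
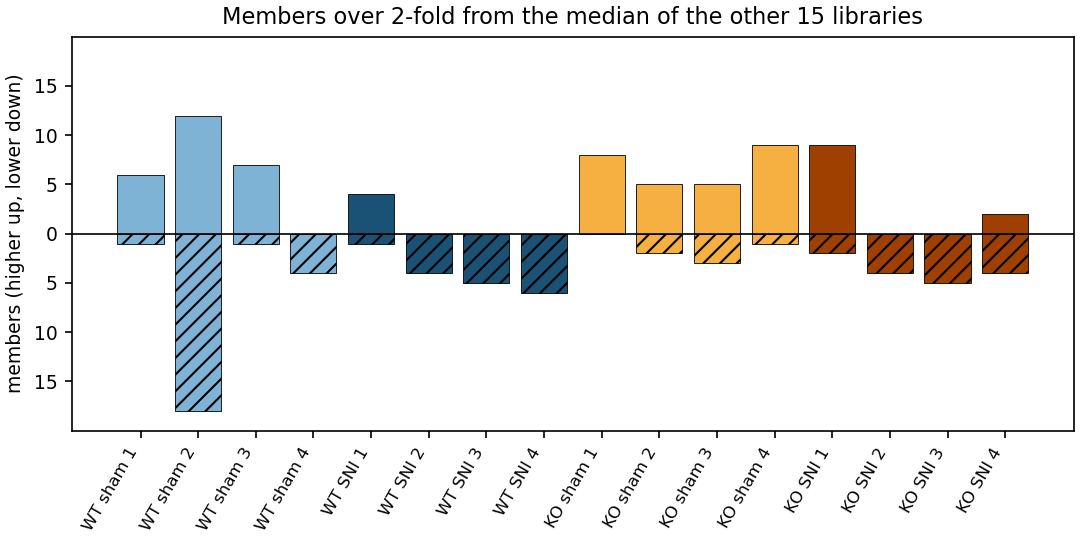
Number of members over 2-fold from the median of the other 15 libraries, by library, with members that were higher drawn upwards and members that were lower drawn downwards and hatched. WT sham replicate 2 has 12 higher and 18 lower members, more than any other library in either direction.

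Leaving out any 1 library returned 63 to 76 of the members. The lowest values were 63 without WT sham replicate 3, 64 without WT sham replicate 1, and 65 without WT sham replicate 2 or 4. The members found again under all 16 omissions numbered 14, all of them among the first 25 ranks, and 22 members were found under fewer than 8. Ranked by means in place of medians, 53 members were found again.

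Lists drawn in 1 genotype were then read in the other, whose libraries had played no part in ranking them. The filter on low values had used all 16 libraries, so the other genotype bore on which genes could be listed. The WT and KO comparisons share no library. The 100 genes with the lowest d in WT had a median d of -0.49 there. In KO, 45 of these 100 genes were lower after SNI and their median d was 0.03, beside 50.2% lower and a median of 0.00 among all genes kept. The 100 genes with the lowest d in KO, with a median of -0.50 there, gave the same picture: 43 were lower in WT, with a median d of 0.08, beside 43.6% of all genes and a median of 0.02. The shares lower in the genotype not used were thus near those of all genes.

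For the highest genes the reading differed. Of the 100 highest in WT, 86 were higher in KO, with a median d of 0.63, and of the 100 highest in KO, 77 were higher in WT, with a median of 0.62, where 49.8% and 56.4% of all genes were higher. Where they were ranked, these lists had a median d of 0.90 in WT and 0.89 in KO. They thus lay further from 0 at the outset than the lists of lowest genes. The 100 lowest in WT and the 100 lowest in KO had 15 genes in common, 15% of each list. That is a larger share than 100 genes make of the 13946 kept. Of the 100 members, 23 were also among the 100 lowest in WT and 27 among the 100 lowest in KO.

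**Figure D5:**
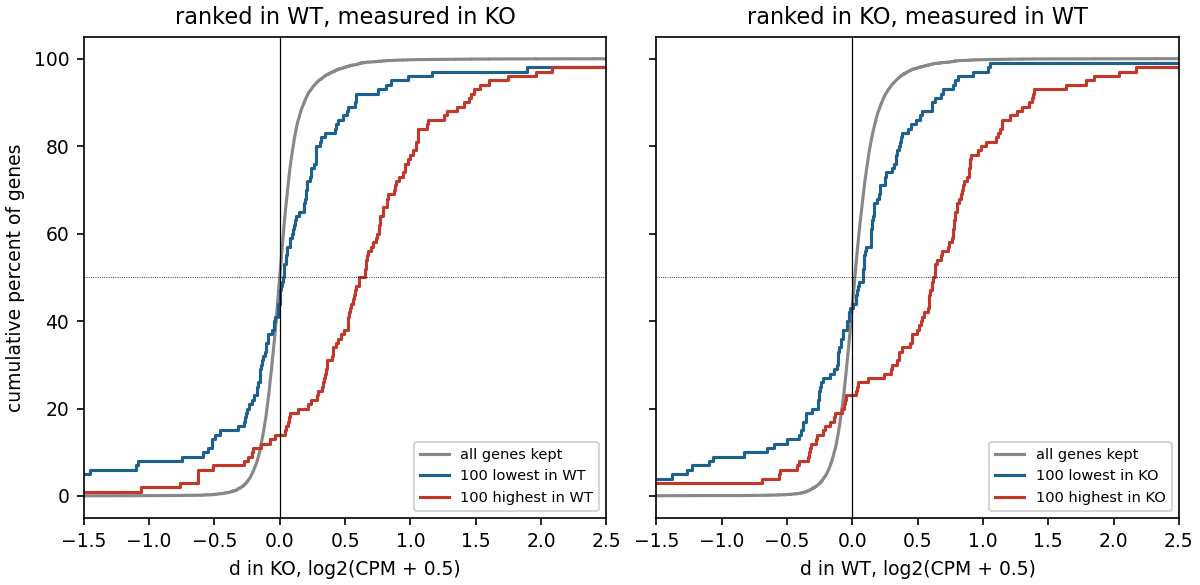
Cumulative percent of genes by their d in the genotype that was not used for ranking, for all genes kept and for the 100 lowest and 100 highest genes of the other genotype (left, ranked in WT and measured in KO; right, the reverse). The horizontal axis runs from -1.5 to 2.5 and leaves out a few genes beyond it. The lists of lowest genes cross 0 at 45% and 43%, close to all genes, while most genes of the lists of highest genes lie above 0.

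Leaving out each library in turn gave 35 to 55 genes lower in KO for the list drawn in WT, and in 5 of the 16 omissions the share was above that of all genes. For the list drawn in KO, 32 to 53 genes were lower in WT, with a share above that of all genes in 4 of the 16. The excess was largest without KO sham replicate 3, where 53 of the 100 genes drawn in KO were lower in WT, beside 43.6% of all genes, and without WT sham replicate 4, where 51 were lower, beside 43.4%. With WT sham replicate 2 and KO SNI replicate 1 both left out, 53 were lower in KO, beside 51.4%, and 38 of the other list in WT, beside 48.3%. Ranked by means in place of medians, 24 genes of the list drawn in WT were lower in KO, beside 50.6%, and 28 of the list drawn in KO were lower in WT, beside 34.3%. These lists hold mostly other genes than the 100 members.

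The comparison of genotypes was the contrast least tied to the rule. KO against WT, averaged over operations, was called by edgeR in 0 of the 100 members, beside 0.0131% of all genes tested (0.00656% called lower), and DESeq2 and limma voom also called 0, beside 0.0132% and 0.0131% of genes. At an unadjusted p under 0.05 there was 1 member, beside 1.68% of all genes. This was the stepped member of rank 67, with a log2 fold change of 2.64 (standard error 1.17, edgeR adjusted p = 1.0), and both of its high libraries were KO. The median log2 fold change of the members was 0.04, with 64 higher and 36 lower in KO, against a median of 0.00 and 49.5% lower among all genes tested. For rank 1 the estimate was 0.22 (95% confidence interval -2.27 to 2.72) and for rank 2 it was 0.18 (-2.10 to 2.45).

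The interaction asks whether the SNI effect differed between genotypes. It called 0 members by edgeR, DESeq2 and limma voom, beside 0%, 0.00659% and 0% of genes. By edgeR, 0 members had an unadjusted p under 0.05, beside 2.99% of all genes tested. The choice of members, which asked for a lower value in both genotypes, bears on this contrast. For rank 50 the interaction was -0.01 on the log2 scale (95% confidence interval -0.44 to 0.43), for rank 20 it was -0.04 (-0.53 to 0.45), and for rank 3 it was -1.74 (-4.31 to 0.82). Differences between genotypes inside these intervals were not detectable with 4 libraries a group.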

How the data were processed

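RNA of 16 dorsal horn libraries, 4 in each of 4 groups, was measured. The authors deposited expected counts per Ensembl rat gene ID. The tools RSEM 1.3.1, STAR 2.7.9a and fastp 0.22.0 and the build mRatBN7.2 appear in the submitters' processing notes. An annotation and a strand setting were not given in the sources used here. Of the deposited values, 96.4% were whole within 1e-09.

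Genes kept at a mean of 1 CPM or more held 99.9% of counts. For the tests, expected counts were rounded, filtered with filterByExpr (minimum count 10) and scaled by TMM. One edgeR 4.0.16 quasi-likelihood model (robust, R 4.3.3) was fitted to all 16 libraries, with Benjamini-Hochberg adjustment over 15237 genes and a threshold of 0.05. DESeq2 1.42.0, limma 3.58.1 voom, no filter, only the groups compared, the replicate block and omitted libraries were alternatives. The model and the ranking were checked on simulated data. Intervals and the 3-count floor cover counting and library spread only.

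Members and lists were chosen with earlier results of these data known. The 47357 genes of the RefSeq table (GRCr8) matched 0 of the 30560 IDs, so 38 gene lists and the rule for named genes by symbol were not run, and the values shown by rank were chosen after they were seen. A comparison with shuffled group labels was not run.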

Additional observations from a re-analysis of the deposited data

Results flagged for a closer look

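Of 36 sets of 4 library values checked, 9 held a value far from the other 3. By chance the check flags about 1 in 20 sets where genes are not selected. The members checked had been chosen as stepped or described genes, so that rate does not apply to them and nothing is read from the count. In each case the other 3 libraries of the group follow in brackets. Rank 1 was high in WT SNI replicate 1, at 8.30 CPM (0 to 0.0376 CPM), and in KO SNI replicate 1, at 8.15 CPM (0 to 0.0409 CPM). Rank 2 was low in KO sham replicate 2, at 0.120 CPM (26.8 to 29.3 CPM). Rank 3 was high in WT SNI replicate 1, at 2.53 CPM (0.210 to 0.450 CPM). Rank 4 was high in KO SNI replicate 1, at 128 CPM (21.4 to 24.4 CPM). Rank 5 was low in KO sham replicate 4, at 0.207 CPM (3.24 to 3.85 CPM), and high in KO SNI replicate 1, at 3.55 CPM (0.0396 to 0.126 CPM). Rank 8 was high in WT SNI replicate 1, at 5.44 CPM (0 to 0.158 CPM). The number of members over 2-fold from the other libraries reached 30 in WT sham replicate 2 (4 to 8).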

How the results depend on the processing

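The list itself depended on the settings. Of its 100 members, 88 were found again with TMM-scaled CPM, 76 and 93 with a pseudocount of 2 and 0.1, 65 with no filter on low values, 53 with means in place of medians, 53 without both libraries that stood apart and 63 to 76 without any 1 library. With a filter of 5 CPM, 44 were found, and that filter kept only 44 members. Genes lower in the genotype not used numbered 46 and 46 with TMM-scaled CPM, 42 and 42 with the filter of 5 CPM, and 24 and 28 with means (list drawn in WT, then in KO), and 35 to 55 and 32 to 53 without any 1 library. Members called in the averaged SNI effect were 4 with DESeq2, 1 without both libraries that stood apart (rank 5, edgeR adjusted p = 0.0121) and 0 to 1 without any 1 library. That 1 was rank 5 without KO SNI replicate 1 and rank 78 without KO SNI replicate 2. It was rank 3 without WT SNI replicate 1 and rank 20 without WT sham replicate 4. In each of these omissions that member was the only gene called lower, and 0.605% to 0.704% of genes were called in either direction. Without both libraries that stood apart, 2 genes were called lower over the whole table, and 1.02% in either direction. In KO alone DESeq2 called 1, and no 1 omitted library brought a call in WT, in KO, between genotypes or in the interaction. The KO against WT estimate of rank 1 turned from 0.22 to -3.32 without both libraries and ran from -3.15 to 3.55 without any 1 library. With the replicate number as a block the averaged SNI estimate of rank 1 was -4.05 in place of -2.12, and that of rank 2 was -0.91 in place of -0.59. The KO against WT estimate of rank 2 turned from 0.18 to -0.19 and ran from -0.25 to 0.50. Of the 7 stepped members, 4 held a gap of 2 or more, beside 0.258% of all genes kept, and 6 a gap with 3 libraries on each side, beside 0.480%. With the replicate number as a block, 0 members were called in each of the 5 comparisons, while genes called over the whole table in WT went from 13 to 45 and in KO from 16 to 70. Whether replicate numbers pair the samples was not settled. Within each genotype, the correlation between sham and SNI libraries of the same number ran from -0.342 to 0.268 over 8 pairs. Of these pairs, 1 was over 0.1, and 2 of the 8 sham libraries correlated best with their own number. Libraries of the same number in different genotypes were not compared. EdgeR's robust option was chosen after the counts of calls had been seen, to follow an earlier processing of these data. Without it 0 members were called in each of the 5 comparisons, and genes called over the whole table in WT were 12 in place of 13. The cause of these changes was not tested. Stepped genes and the lists by means and by the filter of 5 CPM in the other genotype were examined after the data were seen. At 4 libraries a group and a median standard error of 0.20 for members in the averaged effect, beside 0.09 for all genes, small differences were not detectable.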
